A study of Mus musculus with 4 samples.

Results

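The 163 loci described here are microRNA genes, other than those of the miR-10 and miR-181 groups, that had at least 1 count in libraries made from tumour-derived exosomes or from the primary tumour. They were taken from 47069 gene IDs as those whose mouse symbol starts with Mir and a number, or with Mirlet7, and does not name a host transcript. The value that chose them was the count summed over the 4 libraries. This sum does not use the direction between groups, but the tumour libraries were sequenced far deeper and weigh more in it. Loci with counts only in tumour numbered 80, and those with counts only in exosomes 18. Of 1180 loci with a microRNA symbol, 1011 had no count, and 6 of the 169 with counts belonged to the miR-10 and miR-181 groups. At the threshold itself, 53 loci were included with 1 count in all and 1011 were left out with 0.

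Lewis lung carcinoma, a long-established line from a mouse lung tumour, was grown under the skin of C57BL/6 mice. The exosome group had 2 libraries, from vesicles that pieces of such tumours released into serum-free medium over 12 h, passed through a 0.2 µm filter and collected with a precipitation reagent without ultracentrifugation. The tumour group had 2 libraries of total RNA from the primary tumour itself, and tumours were taken 3 weeks after inoculation. All mice carried the tumour and no further treatment is named, so the comparison is between vesicles and tissue of tumour-bearing animals, and both hold material from host cells. The study asked which gene signatures differ between the 2. The labels call the libraries replicates without tying them to individual mice, and p-values therefore reflect the spread of these libraries alone. Adaptors were ligated to total RNA, which was amplified and size-selected on a gel. Counts are therefore of amplified reads over whole hairpin loci, and a count does not tell which arm of a hairpin was sequenced.

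A microRNA is cut from a hairpin, first in the nucleus by Drosha and then in the cytoplasm by Dicer, and a short single strand is loaded into an Argonaute protein. The seed, bases 2 to 8 from the 5′ end, pairs with target messenger RNAs, which are then silenced, so loci that share a seed share many targets. Extracellular vesicles carry microRNAs, and tumour vesicles have been studied as a route by which these RNAs reach other cells.

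The mature sequences of the loci on which the results turn are shown 5′ to 3′, with the seed in capitals, from RefSeq (GRCm38.p6), in which 148 of the 163 loci had an entry. The first set shares the seed AGCAGCA and holds loci called higher in exosomes, loci called lower, and Mir15b, which was not tested.
miR-16-5p: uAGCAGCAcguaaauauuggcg
miR-15a-5p: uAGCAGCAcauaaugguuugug
miR-15b-5p: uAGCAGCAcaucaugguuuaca
miR-322-5p: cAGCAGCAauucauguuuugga
The second set shares the let-7 seed and holds loci that were higher in exosomes and differed between the exosome libraries.
let-7c-5p: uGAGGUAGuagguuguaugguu
let-7i-5p: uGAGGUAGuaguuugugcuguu
miR-98-5p: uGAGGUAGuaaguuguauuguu
The third set holds other loci called higher in exosomes that are described in the text, with partners of the same seed beside each other, and it ends with a pair of neighbours that were lower in exosomes.
miR-99b-5p: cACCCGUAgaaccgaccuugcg
miR-26a-5p: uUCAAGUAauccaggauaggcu
miR-31-5p: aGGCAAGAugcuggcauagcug
miR-30a-5p: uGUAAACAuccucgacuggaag
miR-221-3p: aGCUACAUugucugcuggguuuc
miR-222-3p: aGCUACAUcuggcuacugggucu
miR-125b-5p: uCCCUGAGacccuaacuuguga
miR-351-5p: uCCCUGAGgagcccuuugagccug
miR-27a-3p: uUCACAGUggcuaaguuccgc
miR-23a-3p: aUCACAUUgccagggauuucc
Among the 56 loci with at least 10 counts in all, 12 seeds occurred at several loci. The pairs miR-221 with miR-222 and miR-125b with miR-351 have a seed in common, while miR-23a and miR-27a, transcribed from the same cluster, have different seeds.

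The exosome libraries held 305751 and 217201 counts over all genes and the tumour libraries 14543691 and 10849811, so the tumour group had 48.6 times as many. One count in an exosome library equals 3.27 or 4.60 CPM (a count scaled to a fixed total per library), against 0.0688 or 0.0922 CPM in a tumour library. A floor of 3 counts per library is therefore 9.81 and 13.8 CPM in exosomes and 0.206 and 0.277 CPM in tumour, and intervals and floors cover counting error only. Carcinoma and epithelial markers were near the floor: Krt18 had 1 count in each exosome library and 11 and 4 in the tumour libraries, and Epcam and Krt19 were listed at 0 in all 4. Against library totals, summed levels of host cell markers were higher in exosomes for erythroid genes (271 and 483 CPM in exosomes, 114 and 81.2 in tumour), myeloid genes (55.6 and 101 in exosomes, 8.53 and 4.24 in tumour), endothelial genes (9.81 and 18.4 in exosomes, 0.963 and 0.737 in tumour) and fibroblast and pericyte genes (275 and 285 in exosomes, 11.8 and 10.0 in tumour, with Mir143 itself on this list). The carcinoma and epithelium list, with 1 count in each exosome library, was also higher on this scale (3.27 and 4.60 CPM in exosomes, 0.894 and 0.369 in tumour). So was skeletal muscle (6.54 and 9.21 in exosomes, 0.756 and 0.0922 in tumour). With library totals 63.8% of all tested genes were called higher in exosomes, so these sums do not set host cell markers apart from other genes. With the TMM scaling used for the test, the erythroid sum turned, to 114 and 166 in exosomes and 292 and 221 in tumour, while the myeloid (23.3 and 34.8 in exosomes, 21.8 and 11.5 in tumour), endothelial (4.11 and 6.32 in exosomes, 2.46 and 2.00 in tumour) and fibroblast sums (115 and 98.0 in exosomes, 30.3 and 27.3 in tumour) stayed higher in exosomes. Mir143 alone gave 59 and 40 of the 84 and 62 fibroblast list counts in exosomes, and 44 and 37 of 172 and 109 in tumour. The fibroblast sum therefore largely restates Mir143 in exosomes. Of the 17 and 22 myeloid list counts in exosomes, S100a8 gave 4 and 7 and S100a9 gave 11 and 4. In tumour they gave 32 and 8, and 22 and 2, of 124 and 46. The myeloid sum in exosomes thus rests in large part on these genes, and the endothelial sum on 3 and 4 exosome counts. Counts were found at 6 of 7 erythroid genes in exosomes and 5 in tumour, at 6 of 9 myeloid genes in exosomes and 7 in tumour, at 2 of 4 endothelial genes in exosomes and 3 in tumour, and at 6 of 6 fibroblast and pericyte genes in each group, while Mir451a, Mir223 and Mir142, the microRNAs of red and white blood cells, were at 0 in all 4 libraries. In such bulk samples fewer cells of a type and less RNA per cell cannot be told apart, and the part of these cells in the microRNA results was not tested.

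Together the 163 loci took a larger share of the exosome libraries, and 90.7% and 90.0% of their counts in the tumour libraries came from 2 loci, Mir5099 and Mir3096. The loci had 640 and 829 counts in exosomes and 20552 and 14423 in tumour. As shares of all gene counts these were 0.209% (95% exact Clopper-Pearson interval 0.193 to 0.226) and 0.382% (0.356 to 0.409) in exosomes, against 0.141% (0.139 to 0.143) and 0.133% (0.131 to 0.135) in tumour. The means were 0.295% ± 0.122 in exosomes and 0.137% ± 0.00592 in tumour (SD, n = 2 each), a ratio of 2.15. Without Mir5099 and Mir3096 the exosome mean was 0.294% ± 0.122 and the tumour mean 0.0132% ± 9.05e-05, a ratio of 22.2. The 4 libraries did not overlap between groups on either measure, but 2 libraries against 2 cannot go below 0.333 in an exact two-sided permutation test. Over a total without small nucleolar, small nuclear, ribosomal and ribozyme RNA genes other than Mir3096, the share was 3.87% ± 1.19 in exosomes and 2.62% ± 0.159 in tumour, a ratio of 1.48. Mir3096, annotated as a small nucleolar RNA, was kept in both the share and this total, so the tumour value depends on it.

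**Figure D1:**
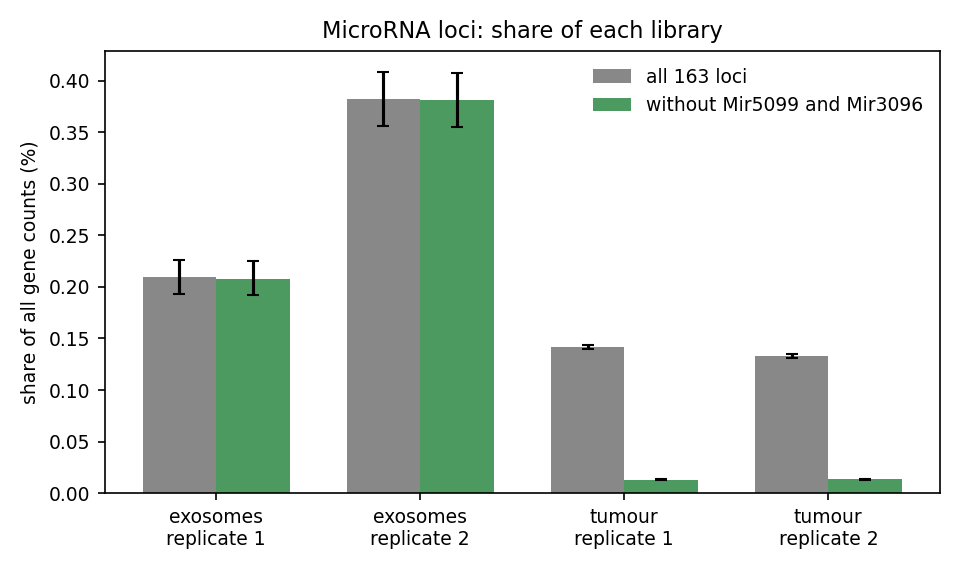
Share of all gene counts (%) held by the microRNA loci in each library, with exact 95% intervals, for all 163 loci and without Mir5099 and Mir3096. The exosome bars hardly change without these loci, whereas the tumour bars fall to 0.0132% and 0.0133%.

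Mir5099 (chromosome 12, 36816205 to 36816278, GRCm38, in no other gene) had 1 and 0 counts in exosomes, against 10152 and 6625 in tumour. It made up 0.156% and 0% of the microRNA counts in exosomes and 49.4% and 45.9% in tumour. Its hairpin, read from RefSeq, is shown because it was the largest microRNA locus of the tumour libraries by count.
Mir5099: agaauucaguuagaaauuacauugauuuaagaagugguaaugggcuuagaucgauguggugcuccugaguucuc
Mir3096 (chromosome 5, 23710991 to 23711061) had 3 and 2 counts in exosomes, against 8483 and 6354 in tumour. The annotation gives Mir3096 the biotype of a small nucleolar RNA, and over its whole hairpin it was 98.6% identical to Snord93, a small nucleolar RNA with 4 and 5 counts in exosomes and 15948 and 11507 in tumour. Small nucleolar RNAs guide the chemical modification of ribosomal RNA. Reads of Mir3096 and Snord93 may not be told apart, so the values of Mir3096 are uncertain. Both loci were lower in exosomes by edgeR's quasi-likelihood test, Mir5099 by a log2 difference of -11.11 (SE 0.36, adjusted p = 1.50e-07) and Mir3096 by -8.70 (SE 0.25, adjusted p = 1.05e-07). Against library totals the pooled level of Mir5099 in exosomes was 0.00289 times that in tumour (95% interval 7.33e-05 to 0.0161).

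MicroRNA numbers follow the order of registration, and 41 of the 163 loci are numbered 1000 or above. These had 15 counts over both exosome libraries, against 31700 over both tumour libraries. Mir5099 and Mir3096 held 6 of these counts in exosomes and 31614 in tumour, and the remaining 39 loci had 9 in exosomes and 86 in tumour. The other 122 loci, which include the conserved families, accounted for 631 and 823 of the exosome counts and 1866 and 1409 of the tumour counts.

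More loci were seen in tumour at the depth sequenced, and fewer at equal depth. Counts were found at 69 and 67 loci in exosomes and at 121 and 104 in tumour. At a common depth of 217201 counts, the expected numbers were 60.6 and 67 loci in exosomes, against 18.0 in each tumour library. With at least 10 counts required, the numbers were 17 and 23 in exosomes and 31 and 23 in tumour, which overlap at their ends. In all, 65 loci had counts in both groups, 18 only in exosomes and 80 only in tumour, and 42 had a count in every library. This split depends on depth, and the same split over all genes is not given here. It therefore does not set the microRNA loci apart from other genes. Most loci were rare, with under 10 counts in all at 107 of the 163.

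Levels of different loci were compared per length, by the authors' FPKM. In exosomes the leading locus was Mir99b (3785 and 5919 FPKM in exosomes, against 96.3 and 110.6 in tumour), whose product belongs to the miR-99 family, known in human cells for repression of MTOR. Mir16-2 was next (2135 and 4556 in exosomes, 26.8 and 21.3 in tumour), followed by Mir143, Mirlet7i, Mir26a-1, Mirlet7c-1, Mir31 and Mir30a. In tumour the leading loci after Mir5099 and Mir3096 were Mir27a (0 and 0 FPKM in exosomes, 186 and 200.2 in tumour), Mir140, Mir322, Mir23a and Mir15a. Mir99b was the eighth locus of the tumour by mean FPKM and Mir143 was the tenth, while Mirlet7c-1, sixth in exosomes, stood at rank 35 in tumour and Mir16-1, at rank 12 in exosomes, stood at rank 48.

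**Figure D2:**
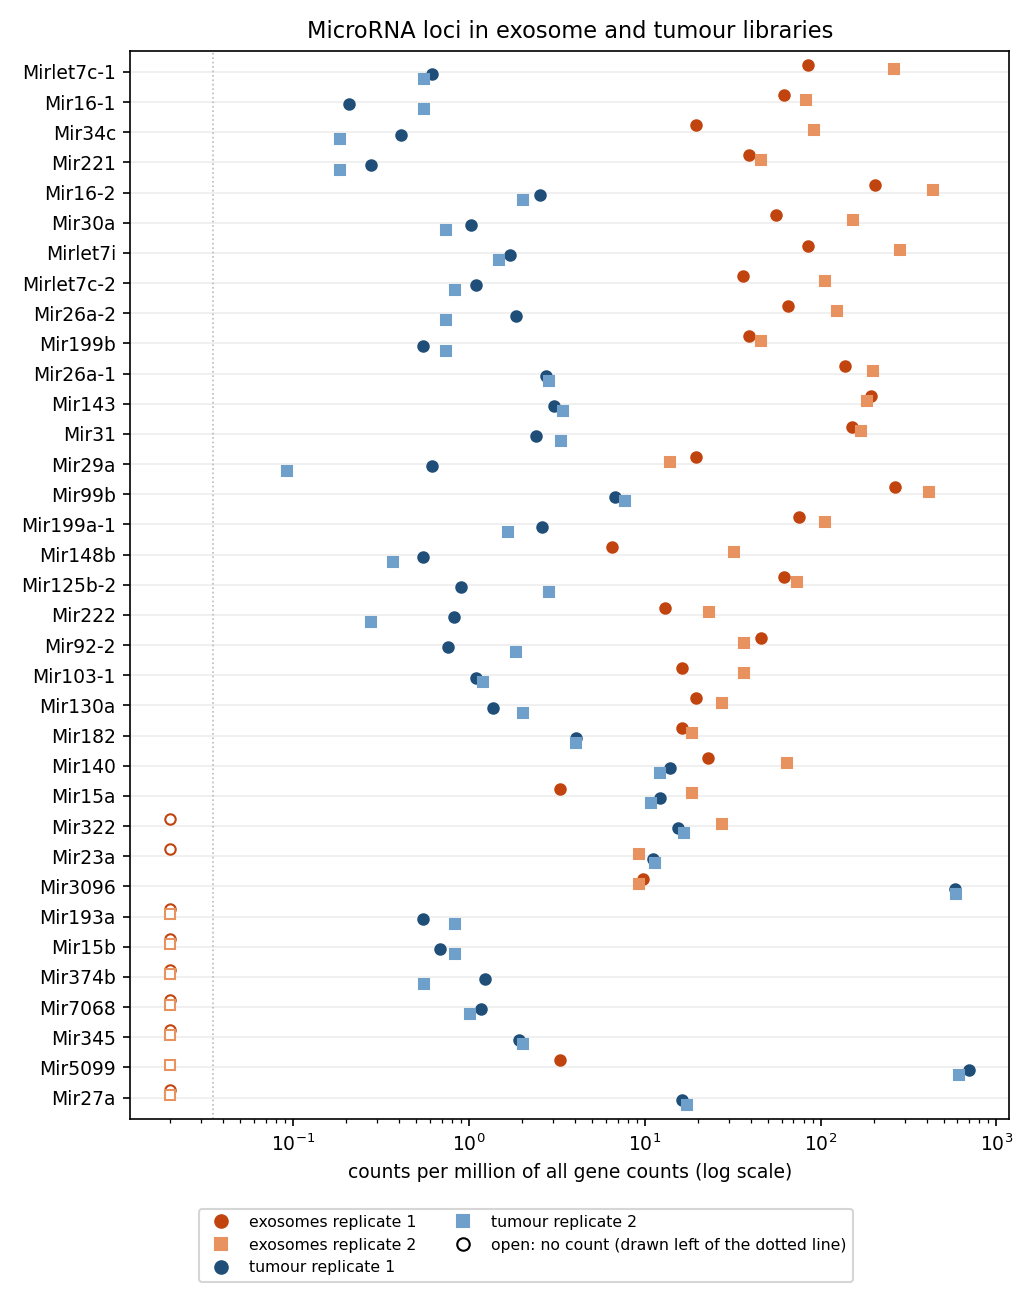
CPM, relative to all gene counts (log scale), of named loci in each library, with the ratio of exosome to tumour CPM falling from the top row down. Exosome points stand to the right of tumour points in most rows, and the lowest rows hold Mir5099, Mir3096, Mir27a and other loci with few or no exosome counts, drawn as open symbols where the count was 0.

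The test across all genes used edgeR with TMM scaling, in which each library is scaled so that most genes do not differ, and 1442 genes passed a filter of 1.79 CPM in at least 2 libraries. Of the 163 loci, 39 passed, and at an adjusted p under 0.05 over all 1442 genes 28 were higher in exosomes and 8 lower. Over all tested genes, 16.0% were called higher and 22.1% lower. Because 1 exosome count exceeds the filter level, 24 of the 39 loci passed through the exosome libraries alone and had to be high there: 23 of them were higher, where 15.1% of the 801 genes that passed in this way were. Another 5 passed through tumour alone and were all lower, against 77.2% of 193 such genes. Among the 10 loci that reached the level in both groups, 5 were higher and 3 lower, against 24.3% and 37.7% of 448 such genes. Only these did not have to be high in 1 group to be tested. Their values still depend on the filter, which also sets the genes used for the TMM factors. With no filter, the log2 difference of Mir99b moved from 2.73 to 1.55 and that of Mir140 from -1.15 to -2.33.

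The scaling bears on these counts. The median log2 difference (exosomes minus tumour) was 2.55 over the 39 loci and 0.02 over all tested genes with TMM scaling, and 5.34 and 2.75 with library totals, under which 32 loci were higher and 3 lower (63.8% and 11.5% of all genes). A scaling added after the data were seen used as library size the counts of all loci with a microRNA symbol except Mir5099 and Mir3096. Relative to these microRNA loci, the medians were -0.056 over the 39 loci and -2.55 over all genes, and 8 loci were higher and 11 lower (7.00% and 78.5% of all genes). Because these loci themselves make up the library size, a small median over them and calls in both directions are largely built in. Such values show only how a locus stands relative to the other microRNA loci. Without tumour replicate 1 or 2 the higher loci numbered 3 and 4 and the lower ones 3 each. These fits set the filter and the TMM factors anew, and the filter level in CPM rose because the median library was then an exosome library. Fewer genes were tested, the median difference over all of them moved to -1.32 and -1.50, and that over the loci tested was 0.78 and 0.98. The loci higher in both of these fits were Mir16-2 and Mirlet7c-1, with Mir221 in the fit without tumour replicate 1 and Mir16-1 and Mir146b in the fit without tumour replicate 2. Those lower were Mir5099, Mir3096 and Mir140. Why the differences shifted was not tested.

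**Figure D3:**
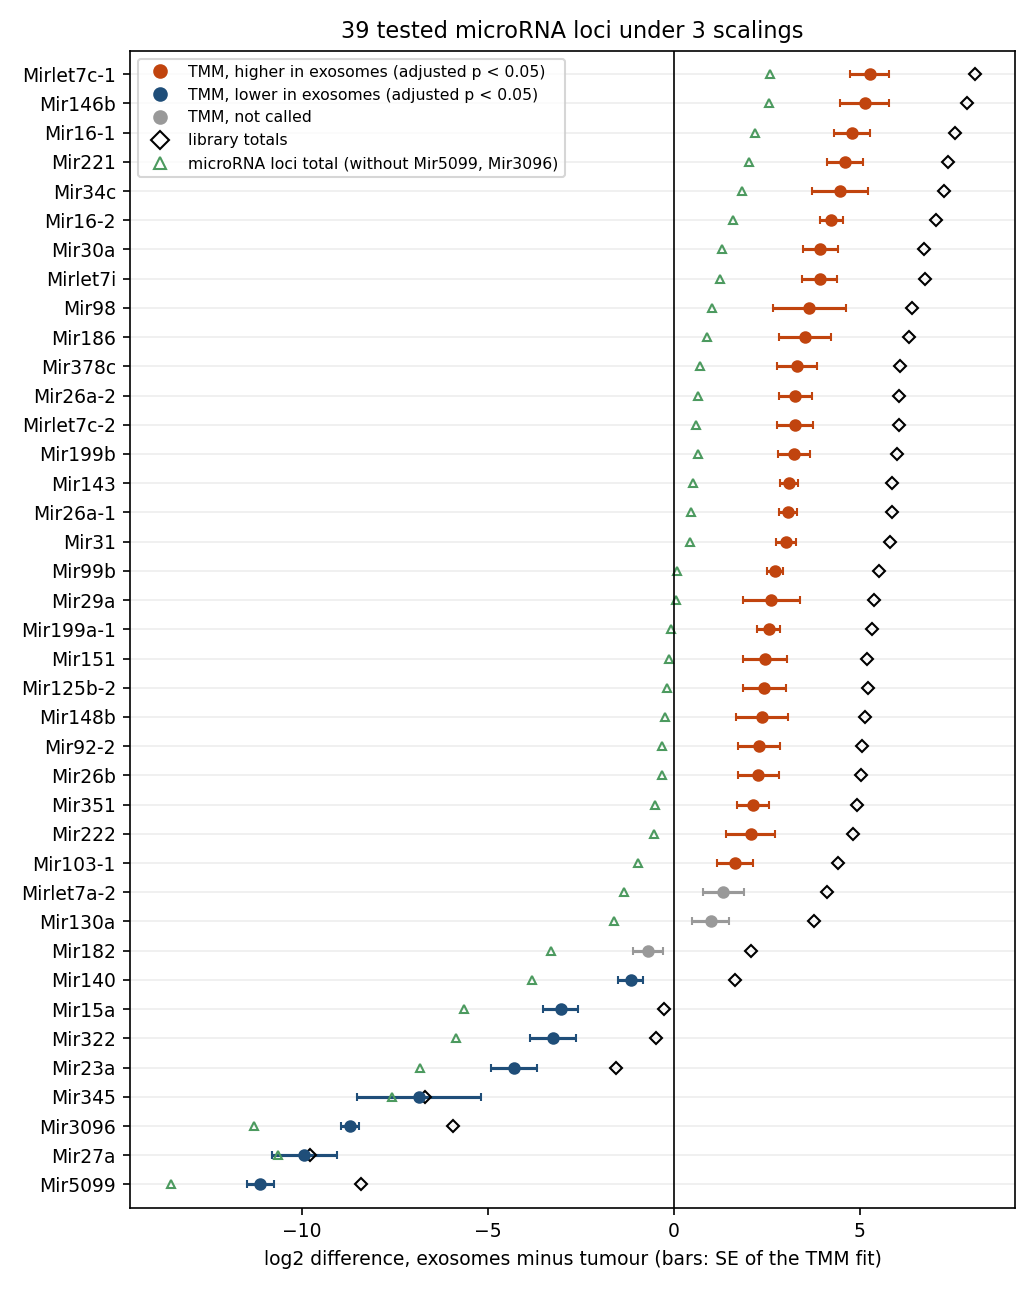
Log2 difference, exosomes minus tumour, of the 39 tested loci with TMM scaling (points, with SE), with library totals (diamonds) and relative to the microRNA loci without Mir5099 and Mir3096 (triangles). Mirlet7c-1, Mir146b, Mir16-1, Mir221, Mir34c and Mir16-2 lie above 0 on each scaling and Mir5099, Mir3096 and Mir27a below it, while Mir140 and Mir182 turn with library totals and loci from Mir199a-1 to Mir130a turn relative to microRNA loci. Points of Mir27a and Mir345, which had no exosome count, depend on the prior count of the fit.

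The family with seed AGCAGCA divided by locus. Both Mir16 loci were higher in exosomes, and Mir15a and Mir322 were lower, although their mature products carry the same seed and the family is known for repressing Bcl2 and cyclin messenger RNAs. Mir16-2 had 62 and 94 counts in exosomes, against 37 and 22 in tumour, so its exosome counts were higher even before the depth is taken into account. Mir16-1 had 19 and 18 counts in exosomes, against 3 and 6 in tumour. By edgeR the log2 differences were 4.24 for Mir16-2 (SE 0.32, adjusted p = 1.51e-05) and 4.79 for Mir16-1 (SE 0.48, adjusted p = 9.01e-05), and both loci were also called higher with library totals and relative to the microRNA loci. The mature sequence is the same at both, and reads may have been divided between them. Summed as 81 and 112 counts in exosomes and 40 and 28 in tumour, their log2 difference was 4.34 (SE 0.28, adjusted p = 3.28e-06 by edgeR). The groups did not overlap at either Mir16 locus.

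Mir15a had 1 and 4 counts in exosomes, against 178 and 118 in tumour. Mir322, the rodent counterpart of human miR-424, had 0 and 6 in exosomes, against 225 and 180 in tumour. Their log2 differences by edgeR were -3.04 (SE 0.47, adjusted p = 0.00119) for Mir15a and -3.24 (SE 0.62, adjusted p = 0.00395) for Mir322. Neither was called with library totals, where the values were -0.27 and -0.46, and in CPM the exosome libraries lay on either side of the tumour: Mir15a was at 3.27 and 18.4 CPM in exosomes, against 12.2 and 10.9 in tumour. Mir15b had 0 and 0 counts in exosomes and 10 and 9 in tumour, and a tumour level of 0.688 and 0.830 CPM would not be detectable at exosome depth.

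The shares of loci within a seed family or a cluster do not depend on scaling between libraries, and these were chosen after the values were seen. Of the counts of Mir15a, Mir15b, Mir322 and both Mir16 loci, the Mir16 loci held 98.8% (exact interval 93.4 to 100) and 91.8% (85.4 to 96.0) in exosomes, against 8.83% (6.38 to 11.8) and 8.36% (5.63 to 11.9) in tumour. No test is given, since 2 against 2 libraries cannot reach the threshold. The intervals cover counting error within each library, and the split of the loci followed directions already seen. The distance between the groups is therefore description only.

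Mir16 and Mir15 loci lie side by side in a pair of clusters. On chromosome 3 Mir15b (69009772 to 69009835) and Mir16-2 (69009902 to 69009996) lie on the plus strand in an intron of Smc4. On chromosome 14 Mir15a (61632027 to 61632110) and Mir16-1 (61631880 to 61631972) lie on the minus strand within Dleu2. The hairpins of the first pair are shown, with the 5′ arm product in capitals, since neighbours on a common transcript had unlike counts.
Mir15b: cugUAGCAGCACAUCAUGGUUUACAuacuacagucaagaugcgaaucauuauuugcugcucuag
Mir16-2: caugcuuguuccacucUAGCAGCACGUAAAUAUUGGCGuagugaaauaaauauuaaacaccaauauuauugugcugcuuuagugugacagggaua
Of the counts of this pair, Mir16-2 had 100% in both exosome libraries (lower bounds 94.2% and 96.2%), against 78.7% (64.3 to 89.3) and 71.0% (52.0 to 85.8) in tumour. On chromosome 14, Mir16-1 had 95% (75.1 to 99.9) and 81.8% (59.7 to 94.8) of the counts of its pair in exosomes, against 1.66% (0.343 to 4.77) and 4.84% (1.80 to 10.2) in tumour. The same direction appeared at both places, and the difference was wider on chromosome 14. Because reads of the mature miR-16 fit both Mir16 loci, the pairs are not independent of each other. Both shares, and which difference is wider, also depend on how such reads were counted, which is not given in the sources used here. Their host transcripts had few counts: Smc4 had 1 and 0 counts in exosomes and 12 and 18 in tumour, and Dleu2 had 0 and 0 in exosomes and 4 and 1 in tumour. With library totals these tumour levels lie below the exosome floor of 9.81 and 13.8 CPM. A difference of the host transcripts between groups is therefore not measurable at this depth.

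**Figure D4:**
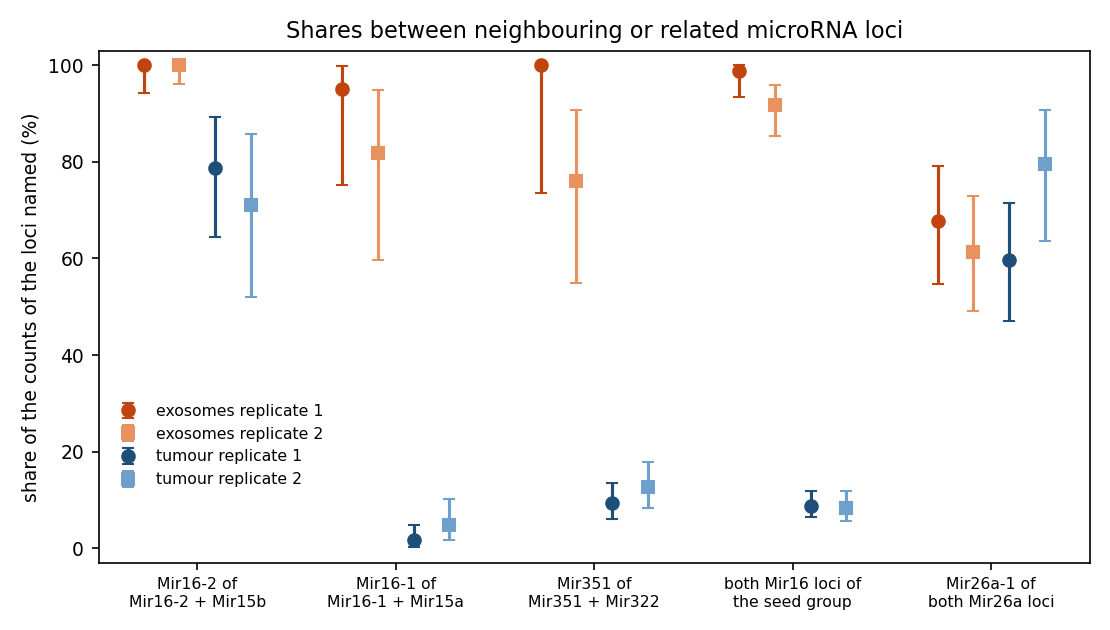
Share (%) of the counts of neighbouring or related loci in each library, with exact 95% intervals. Mir16-1 of its pair with Mir15a is at 95% and 81.8% in exosomes and at 1.66% and 4.84% in tumour, whereas the 2 loci of Mir26a, shown for comparison, have the same mature product and shares that overlap between groups.

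A similar division occurred in the X chromosome cluster of Mir322, Mir503, Mir351, Mir542 and the Mir450 loci, transcribed on the minus strand from 53054349 down to 53047997. Mir351, a rodent relative of miR-125 with the seed CCCUGAG, had 12 and 19 counts in exosomes, against 23 and 26 in tumour. Of the counts of Mir351 and Mir322, Mir351 had 100% (73.5 to 100) and 76% (54.9 to 90.6) in exosomes, against 9.27% (5.97 to 13.6) and 12.6% (8.41 to 17.9) in tumour. By edgeR Mir351 was higher in exosomes by a log2 difference of 2.15 (SE 0.43, adjusted p = 0.00507), but -0.50 relative to the microRNA loci. The other members had at most 4 counts in any library, the highest being 4 at Mir450-1 in tumour replicate 2.

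In the cluster of Mir23a, Mir27a and Mir24-2 on chromosome 8 (84208518 to 84208921), the loci with counts were lower in exosomes. These microRNAs are known for roles in haematopoietic and muscle cells. Mir27a had 0 and 0 counts in exosomes, against 235 and 189 in tumour, and Mir23a had 0 and 2 in exosomes, against 162 and 124 in tumour. With a floor of 3 counts per library, Mir27a was at least 10.0-fold lower in exosomes with TMM scaling and at least 1.42-fold lower with library totals (adjusted p = 1.10e-04 by edgeR with TMM). Mir23a was lower by a log2 difference of -4.30 (SE 0.62, adjusted p = 8.00e-04 by edgeR), but it was not called with library totals, where the value was -1.55. Mir24-2 was listed at 0 in all 4 libraries. The paralogous loci on chromosome 13 were rare, with 0 and 1 counts of Mir23b in exosomes and 9 and 7 in tumour, and 0 and 0 of Mir27b in exosomes and 1 and 2 in tumour.

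The remaining loci called lower in exosomes were Mir140 and Mir345. Mir140, known for its role in cartilage, had 7 and 14 counts in exosomes, against 202 and 133 in tumour. Its log2 difference was -1.15 (SE 0.34, adjusted p = 0.0318 by edgeR) with TMM scaling but 1.64 with library totals, so its direction turned with the scaling. Mir140 overlaps an exon of Wwp2, which itself had 1 and 0 counts in exosomes and 3 and 2 in tumour. Mir345 had 0 and 0 counts in exosomes, against 28 and 22 in tumour, which with TMM scaling makes at least a 1.18-fold lower level (adjusted p = 0.0173 by edgeR), but it was not called with library totals, which give no bound above 1.

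The let-7 family, which represses growth genes such as Ras, Hmga2 and Lin28, was higher in exosomes at 4 of the 5 tested loci and lower at none, where 16.0% of all tested genes were higher and 22.1% lower. The 4 loci passed the filter through the exosome libraries alone, and the fifth, Mirlet7a-2, which passed in both groups, was not called. Of 14 loci on the list, 9 had counts, 71 and 182 in exosomes and 113 and 69 in tumour. Mirlet7c-1 had 26 and 57 counts in exosomes, against 9 and 6 in tumour, and Mirlet7i had 26 and 61 in exosomes, against 25 and 16 in tumour. Mirlet7c-1 had the largest positive difference among the 39 loci on the TMM scale, 5.28 (SE 0.52, adjusted p = 8.59e-05 by edgeR), and Mirlet7i was higher by 3.92 (SE 0.47, adjusted p = 2.82e-04). Mirlet7c-2, whose mature product is the same as that of Mirlet7c-1, had 11 and 23 counts in exosomes and 16 and 9 in tumour (3.27, SE 0.49, adjusted p = 0.00109 by edgeR). Mir98 had 1 and 12 in exosomes and 4 and 3 in tumour (3.65, SE 0.98, adjusted p = 0.0204 by edgeR), so that almost all of its exosome counts came from replicate 2. Mirlet7a-2 was not called, with 5 and 18 counts in exosomes and 38 and 27 in tumour (1.34, SE 0.55, adjusted p = 0.104 by edgeR), and relative to the microRNA loci it was called lower, at -1.33. On that scaling Mirlet7c-1 (2.61) and Mirlet7i (1.24) were called higher, and Mirlet7c-2 (0.62) and Mir98 (1.03) were not called.

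Of the 2 let-7c loci, Mirlet7c-1 held 70.3% (53.0 to 84.1) and 71.3% (60.1 to 80.8) of the counts in exosomes, against 36% (18.0 to 57.5) and 40% (16.3 to 67.7) in tumour. Reads of the mature product fit both loci, so this share also depends on flanking bases and on how such reads were counted, which is not given in the sources used here. Mirlet7c-1 lies on chromosome 16 (77599657 to 77599750) in the cluster of Mir99a, which had no exosome count and 1 and 0 counts in tumour. Mirlet7c-2 lies on chromosome 15 beside Mirlet7b, which had 1 and 4 counts in exosomes and 3 and 1 in tumour.

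The exosome libraries differed from each other, with high ratios at let-7 loci. Over the 21 loci with at least 20 exosome counts in all, exosome replicate 2 had the higher CPM at 19, with a median ratio of replicate 2 to replicate 1 of 1.90 and a range of 0.804 to 5.07. The share of all 163 loci differed by a ratio of 1.82. Mirlet7c-2, Mirlet7c-1, Mirlet7i and Mirlet7a-2 had ratios of 2.94, 3.09, 3.30 and 5.07, and Mir34c and Mir186 had 4.69 and 4.22. Mir143 and Mir92-2 had ratios of 0.954 and 0.804, and Mir31 had 1.13. Which property of the libraries goes with this was not tested.

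Among loci well above the floor in both groups, Mir99b, Mir26a-1, Mir31 and Mir143 were higher in exosomes with TMM scaling and with library totals. Relative to the microRNA loci none of these 4 was called, at 0.11, 0.46, 0.43 and 0.52. They also lost the call without either tumour library, in fits that set the filter and TMM factors anew. The values there were 0.35 and 0.62 at Mir99b, 0.78 and 0.90 at Mir26a-1, 0.52 and 1.04 at Mir31 and 0.72 and 0.96 at Mir143 (without replicate 1 and without replicate 2). Mir99b had 81 and 90 counts in exosomes, against 98 and 84 in tumour, which is close to equal in counts and far apart in CPM (265 and 414 CPM in exosomes, 6.74 and 7.74 in tumour). Its log2 difference was 2.73 (SE 0.21, adjusted p = 1.77e-05 by edgeR). Mir125a, its neighbour on the same transcript, was listed at 0 in all 4 libraries.

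Mir26a-1, one of several sources of miR-26a, which is known to repress Ezh2, had 42 and 43 counts in exosomes, against 40 and 31 in tumour (3.08, SE 0.23, adjusted p = 1.66e-05 by edgeR). Mir26a-2 had 20 and 27 counts in exosomes, against 27 and 8 in tumour (3.27, SE 0.45, adjusted p = 5.95e-04 by edgeR). The share of Mir26a-1 among these loci was 67.7% and 61.4% in exosomes and 59.7% and 79.5% in tumour. The copies of miR-26a thus had overlapping proportions, unlike the Mir16 and Mir15 neighbours and the let-7c loci. Both Mir26a loci give the same mature product, so this share also depends on how reads that fit both were counted. Mir26b had 8 and 4 counts in exosomes and 8 and 9 in tumour, with a log2 difference of 2.28 (SE 0.54, adjusted p = 0.0118 by edgeR) that was -0.30 relative to the microRNA loci.

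Mir31, a locus studied in tumour invasion, had 46 and 37 counts in exosomes, against 35 and 36 in tumour (3.03, SE 0.27, adjusted p = 4.21e-05 by edgeR). Mir143, which marks smooth muscle cells and fibroblasts, had 59 and 40 counts in exosomes, against 44 and 37 in tumour (3.10, SE 0.24, adjusted p = 1.95e-05 by edgeR). The fibroblast and pericyte list had counts at 6 of 6 genes in each group, but Mir143 and Mir145a are themselves among these 6. Col3a1, also on the list, had 19 and 16 counts in exosomes and 105 and 65 in tumour. Mir145a, the neighbour of Mir143, had 2 and 0 counts in exosomes and 2 and 1 in tumour. The part of these cells in the level of Mir143 was not tested.

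Mir221 and Mir222, which share a seed and are known to repress the cell cycle inhibitor Cdkn1b, were both called higher in exosomes with TMM scaling. Mir221 had 12 and 10 counts in exosomes, against 4 and 2 in tumour, with a log2 difference of 4.61 (SE 0.47, adjusted p = 1.07e-04 by edgeR), and was also called relative to the microRNA loci, at 2.03. Mir222 had 4 and 5 counts in exosomes, against 12 and 3 in tumour, with 2.07 (SE 0.65, adjusted p = 0.0395 by edgeR) on the TMM scale and -0.52 relative to the microRNA loci. The call of Mir222 was lost with no filter and with DESeq2. The loci lie within 1 cluster on the X chromosome. Mir221 held 75% (47.6 to 92.7) and 66.7% (38.4 to 88.2) of their counts in exosomes, against 25% (7.27 to 52.4) and 40% (5.27 to 85.3) in tumour, with intervals that overlap.

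Besides both Mir16 loci, Mirlet7c-1, Mirlet7i and Mir221, the loci called higher on each of the 3 scalings were Mir146b, Mir34c and Mir30a. Without either tumour library Mir34c and Mir30a were not called. Mir146b, induced by NF-kB signalling, had 6 and 11 counts in exosomes, against 1 and 2 in tumour (5.14, SE 0.66, adjusted p = 4.14e-04 by edgeR). Mir34c, a target of p53, had 6 and 20 in exosomes, against 6 and 2 in tumour (4.48, SE 0.75, adjusted p = 0.00189 by edgeR). Mir30a had 17 and 33 in exosomes, against 15 and 8 in tumour (3.94, SE 0.47, adjusted p = 2.55e-04 by edgeR). The groups overlap in counts at Mir34c but not in CPM, where it was at 19.6 and 92.1 in exosomes and 0.413 and 0.184 in tumour. At exosome depth 1 count is 3.27 or 4.60 CPM, so any exosome count would exceed these tumour values.

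A further 7 loci were called higher with TMM scaling (adjusted p between 3.45e-04 and 0.0319 by edgeR) and were not called relative to the microRNA loci. Mir199a-1, from a family expressed in mesenchymal cells, had 23 and 23 counts in exosomes, against 38 and 18 in tumour, with a log2 difference of 2.55 with TMM and -0.056 relative to the microRNA loci. Mir199b had 12 and 10 in exosomes and 8 and 8 in tumour, with 3.25 and 0.65. Mir125b-2, a vertebrate homolog of the worm regulator lin-4, had 19 and 16 in exosomes and 13 and 31 in tumour, with 2.44 and -0.17. The second scaling moved the differences of Mir199a-1 and Mir125b-2 below 0. Mir29a, known to repress collagen messenger RNAs, had 6 and 3 in exosomes and 9 and 1 in tumour, with 2.63 and 0.06. Mir92-2, from a paralog of the miR-17 to miR-92 cluster, had 14 and 8 in exosomes and 11 and 20 in tumour, with 2.29 and -0.31. Mir148b, known to repress Dnmt1, had 2 and 7 in exosomes and 8 and 4 in tumour, with 2.38 and -0.23. Mir103-1, known to repress Dicer1, had 5 and 8 in exosomes and 16 and 13 in tumour, with 1.66 and -0.97. In CPM the exosome libraries stood above the tumour libraries at each of these 7 loci. However, the highest tumour value among them was 2.86 CPM, at Mir125b-2, and 1 exosome count is already 3.27 or 4.60 CPM. Any exosome count would thus give this separation. The differences of Mir92-2, Mir148b and Mir103-1 also turned below 0 on the second scaling. Of the other higher calls, Mir151 had 6 and 2 counts in exosomes and 6 and 4 in tumour, with 2.45 and -0.12. Mir186 had 5 and 15 in exosomes and 9 and 3 in tumour, with 3.54 and 0.90. Mir378c had 6 and 10 in exosomes and 6 and 5 in tumour, with 3.32 and 0.71.

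The loci not called were Mirlet7a-2, Mir182 and Mir130a. Mir182, from the cluster of Mir183 and Mir96 that is known from sensory cells, had 5 and 4 counts in exosomes, against 59 and 44 in tumour, and a log2 difference of -0.69 (SE 0.39, adjusted p = 0.271 by edgeR) that turned to 2.08 with library totals. Mir183 had 0 and 0 counts in exosomes and 7 and 9 in tumour. Mir130a had 6 and 6 counts in exosomes, against 20 and 22 in tumour, and a difference of 1.0 (SE 0.49, adjusted p = 0.169 by edgeR) that was -1.61 relative to the microRNA loci. A missed threshold does not show that these loci were equal.

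Some loci had counts in only 1 group, though none of the 18 found only in exosomes had over 6 counts in all. Mir19b-2 had 4 and 2 counts in exosomes, Mir146 had 3 and 2, and Mir152 had 1 and 4, all with 0 and 0 in tumour. Mir378d and Mir7688 had 1 and 2 each and Mir449a had 1 and 1, again with 0 and 0 in tumour. These are too few for the filter, but a tumour library with many more counts showed none of them. Against a floor of 3 counts per library, Mir19b-2 was at least 6.76-fold higher in exosomes with TMM scaling. Of the loci found only in tumour, besides Mir27a and Mir345, Mir7068 had 17 and 11 counts, Mir374b 18 and 6, Mir15b 10 and 9, and Mir193a 8 and 9, against 0 and 0 in exosomes. Such levels are below the exosome floor, so their absence from exosomes is not measurable at this depth.

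Several microRNAs that are common in tumours and blood were listed at 0 in all 4 libraries, and this limits what the counts can show. They include Mir21a, Mir155, Mir17, Mir18, Mir19a, Mir20a, Mir92-1, Mir126a, Mir142, Mir150, Mir223, Mir451a and Mir200c. Many of them lie within an exon of another annotated gene, such as Mir17hg for Mir17, Mir18, Mir19a and Mir20a. Of the loci on the family and cell type lists, 13 of 66 (19.7%) that overlap an exon of another gene on either strand had a count, against 56 of 75 (74.7%) that overlap none. Among all loci numbered under 1000 and let-7 loci the values were 21 of 162 (13.0%) and 107 of 364 (29.4%). How the authors counted reads that fall in more than 1 gene is not given in the sources used here, and its part in these zeros was not tested. A locus listed at 0 is therefore not shown to be absent, and Mir142 and Mir150, which overlap no exon of a gene on their own strand, were at 0 as well.

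**Figure D5:**
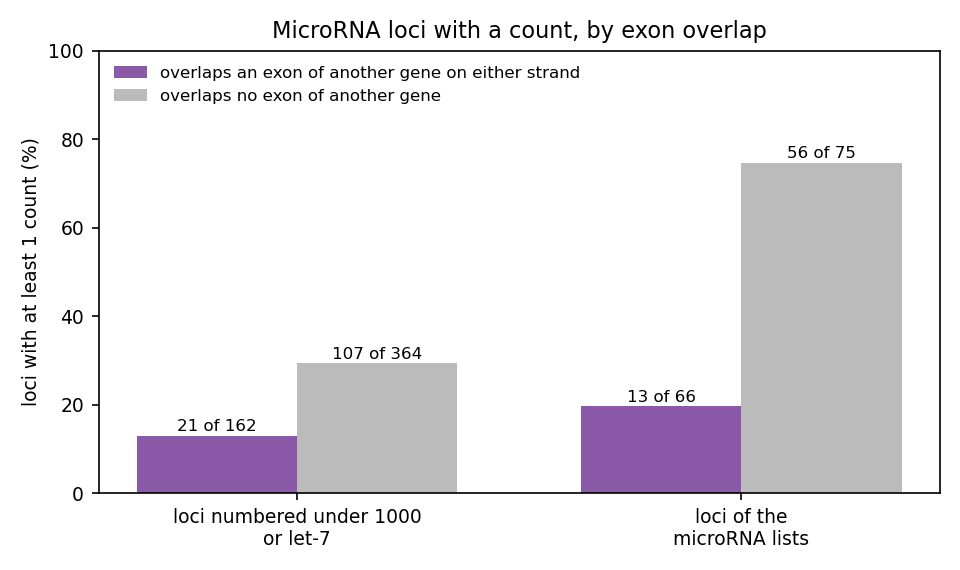
Share (%) of microRNA loci with at least 1 count, by whether the locus overlaps an exon of another gene on either strand, for all loci numbered under 1000 or let-7 and for the loci on the microRNA lists. On the lists, 13 of 66 overlapping loci and 56 of 75 others had a count.

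By place in the genome, the 163 loci fell mostly in introns. An intron of another gene on the same strand held 84, no other gene 48, an exon on the same strand 24, and another gene on the opposite strand only 7. The 24 loci within exons had 151 and 202 counts in exosomes, against 387 and 286 in tumour. Among them, Mir31 overlaps an exon of a long noncoding transcript, Mirlet7i and Mirlet7c-2 overlap exons of noncoding transcripts, and Mir26a-2 overlaps an exon of Ctdsp2, which had 1 and 2 counts in exosomes and 12 and 10 in tumour. The X chromosome held 19 of the loci.

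Genes of microRNA processing gave few tests. Of the Dicer and Argonaute list, 4 of 13 genes were tested, with 0 higher and 2 lower in exosomes, beside 16.0% and 22.1% of all tested genes: Hspa8, a chaperone used in Argonaute loading, had 7 and 5 counts in exosomes and 129 and 74 in tumour (-1.23, SE 0.35, adjusted p = 0.0251 by edgeR), and Hsp90aa1, a chaperone of the same step, had 3 and 4 in exosomes and 91 and 78 in tumour (-1.77, SE 0.42, adjusted p = 0.0113 by edgeR). With library totals both turned, to 1.54 and 1.0. Ago2, the cleaving Argonaute, had 3 and 0 counts in exosomes and 20 and 13 in tumour and was not tested. Of nuclear processing and export genes 3 of 9 were tested and of RNA-binding proteins proposed to sort RNA into vesicles 5 of 10, with none called beside the same shares of all genes, Hnrnpa2b1 (7 and 0 in exosomes, 58 and 45 in tumour, -1.06, adjusted p = 0.334 by edgeR) and Ybx1 (2 and 5 in exosomes, 12 and 13 in tumour, 0.97, adjusted p = 0.328 by edgeR) among them. No turnover gene and no host transcript reached the filter.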

How the data were processed

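The authors deposited whole-number gene counts and FPKM for each library, per the file headers. The deposited FPKM are counts per gene length and library total. The submitters' processing notes name TopHat2 2.0.9, Cufflinks 2.1.1, Cuffdiff and the build GRCm38.p4. The counting tool, annotation, strand setting and treatment of reads with several matches were not stated in the sources at hand. Symbols and positions came from GENCODE M21 (46574 of 47069 IDs matched).

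Counts of all genes were fitted in R 4.3.3 with edgeR 4.0.16 (TMM, filterByExpr with minimum count 10 and minimum total 15, two-sided quasi-likelihood test, group as the only term, Benjamini-Hochberg at 0.05). The SE is the difference over the square root of F. Hairpins were compared with transcripts by blastn 2.17.0 (at least 90% identity over at least 80%). Loci were named by rule: the 8 largest by share in each group, up to 10 called in each direction with 10 or more counts in each library of the group where they are higher, up to 2 per family, and up to 6 found in 1 group only. Other loci were named after their values were seen. Members and lists were chosen with earlier results of these data known. The labels do not say whether replicate numbers pair exosome with tumour libraries. The correlation of deviations was -0.02 over 1442 genes, which with so few exosome counts cannot settle it. Alternatives were other scalings and filters, a replicate block, leaving out each library, summed loci and DESeq2 1.42.0.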

Additional observations from a re-analysis of the deposited data

How the results depend on the processing

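With 2 libraries per group, calls rest on few counts in exosomes and on the scaling. The counts of loci called higher and lower were 28 and 8, and median-of-ratios factors, summed microRNA counts as library size, summed loci and DESeq2 kept them within 1.5 times. With library totals, 3 loci were lower, and 920 of all genes were higher and 166 lower. Relative to the microRNA loci without Mir5099 and Mir3096, a scaling chosen after seeing the data, 8 loci were higher, and 101 of all genes higher and 1132 lower. With no filter, 610 of all genes were lower. Leaving out each library gave 3 to 24 loci higher and 3 to 8 lower, and over all genes 82 to 190 higher and 190 to 319 lower. The low ends came without a tumour library, when fewer genes were tested and the fitted differences also shifted, and a group of 1 library is then assumed to vary like the other. With the replicate block, 29 loci were higher and 8 lower, and the pairing changed the call of Mirlet7a-2 only among named loci. Without structural RNA genes other than Mir3096 in the total, the share was 3.87% in exosomes and 2.62% in tumour. The tumour share was 0.0129% without loci numbered 1000 or above and 0.0132% without Mir5099 and Mir3096. The number of loci was 18.0 in tumour at equal depth, and with at least 10 counts 20 in exosomes and 27 in tumour.

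Directions turned with library totals at Mir140 (1.64), Mir182 (2.08), Hspa8 (1.54) and Hsp90aa1 (1.0). They turned relative to the microRNA loci at Mir199a-1 (-0.056), Mirlet7a-2 (-1.33), Mir351 (-0.50), Mir125b-2 (-0.17), Mir130a (-1.61), Mir92-2 (-0.31), Mir103-1 (-0.97), Mir26b (-0.30), Mir222 (-0.52), Mir148b (-0.23) and Mir151 (-0.12). Mir130a was at -0.18 with no filter. Over the fits that leave out a library, Mirlet7a-2 ranged from -0.88 to 2.13, Mir351 from -0.41 to 2.60, Mir125b-2 from -0.51 to 2.50, Mir92-2 from -0.55 to 2.57 and Mir103-1 from -0.66 to 2.12. Mir5099, Mir3096, Mir27a, Mir16-2 and Mirlet7c-1 kept their call in every alternative in which they were tested. The causes were not tested.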
